A study of Homo sapiens with 6 samples.

Results

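The genes described here mostly encode proteins of the lysosome, of autophagy and of endosome sorting. Their RNA was compared between D283 tumorspheres with and without knockdown of the transcription factor OTX2. The genes were chosen by symbol, with earlier results of these data known. A symbol does not ensure a role in these pathways. A gene was a member if its symbol was CTS followed by 1 letter, if it was LAMP, ATG, SNX, VPS or CHMP followed by a digit, if it started with GABARAP, or if it was CD68, TFEB, LAPTM4A, LAPTM4B or LAPTM5. This gave 113 genes of the 14884 that the array annotation names, of which 109 code for protein and the other 4 are the pseudogenes SNX29P1 and SNX29P2 and the antisense RNAs VPS13A-AS1 and VPS9D1-AS1. Each gene was read from 1 transcript cluster, a group of probes summarized to a single value, and 4 genes with a second cluster were read from the brighter one. D283 is an established medulloblastoma (MB) cell line that shares features of Group 3 and Group 4 tumors, and all cells were grown as floating tumorspheres in a neural medium with EGF and bFGF. The OTX2 KD group received the siRNA s9931 (n = 3 arrays) and the scramble group a siRNA that silences nothing (n = 3 arrays). Replicates of a group are biological ones per the methods. The model is limited to 1 cell line and 1 siRNA, so that loss of OTX2 and any other effect of that siRNA cannot be told apart.

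Lysosomes are acidic organelles in which cathepsins, a set of proteases, and other hydrolases break down material from outside and inside the cell. Autophagy proteins wrap cytoplasm in a double membrane and deliver it to lysosomes, whereas sorting nexins, VPS proteins and the ESCRT machinery, which includes the CHMP proteins, decide at the endosome whether a membrane protein is recycled or degraded. The transcription factor TFEB switches on many of these genes by binding an E-box-like element in their promoters, and the mTORC1 kinase at the lysosome surface holds TFEB back when nutrients are plentiful.

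Promoters of 5 members are shown. LAMP1 and CTSA carry the elements that TFEB family proteins bind, CTSV and CTSC had the largest falls given below, and GABARAPL1, a gene of autophagy, is an example of a member that rose. Each is 300 bases of the GRCh38.p14 build from RefSeq, from 250 bases before the gene start to 50 bases from it on, and is written 5′ to 3′ on the strand of the gene. Capitals mark every match, on either strand, to the E-box CACGTG, to the longer TFEB element TCACGTGA, which contains it, and to the OTX2 motifs TAATCC and TAATCT. LAMP1 lies at chr13:113296989-113297288 on the plus strand, CTSA at chr20:45891085-45891384 on the plus strand, CTSV at chr9:97039093-97039392 on the minus strand, CTSC at chr11:88337687-88337986 on the minus strand and GABARAPL1 at chr12:10212627-10212926 on the plus strand.
LAMP1: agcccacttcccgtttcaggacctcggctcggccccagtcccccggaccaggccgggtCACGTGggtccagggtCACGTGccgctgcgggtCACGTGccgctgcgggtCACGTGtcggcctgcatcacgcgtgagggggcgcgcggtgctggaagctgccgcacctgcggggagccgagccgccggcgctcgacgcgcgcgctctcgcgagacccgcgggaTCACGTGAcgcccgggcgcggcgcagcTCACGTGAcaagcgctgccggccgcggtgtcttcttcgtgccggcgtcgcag
CTSA: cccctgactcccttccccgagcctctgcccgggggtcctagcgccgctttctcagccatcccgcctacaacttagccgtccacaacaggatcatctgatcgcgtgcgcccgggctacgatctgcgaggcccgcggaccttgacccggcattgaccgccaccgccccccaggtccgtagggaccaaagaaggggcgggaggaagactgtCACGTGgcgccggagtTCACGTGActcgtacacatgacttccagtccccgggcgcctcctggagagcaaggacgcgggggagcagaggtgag
CTSV: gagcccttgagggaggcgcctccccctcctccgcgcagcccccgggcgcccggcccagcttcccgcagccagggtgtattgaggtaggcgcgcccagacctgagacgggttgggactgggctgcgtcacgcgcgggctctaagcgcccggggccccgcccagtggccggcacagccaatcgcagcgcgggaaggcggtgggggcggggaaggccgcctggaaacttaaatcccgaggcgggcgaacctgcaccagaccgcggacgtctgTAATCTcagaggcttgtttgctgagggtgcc
CTSC: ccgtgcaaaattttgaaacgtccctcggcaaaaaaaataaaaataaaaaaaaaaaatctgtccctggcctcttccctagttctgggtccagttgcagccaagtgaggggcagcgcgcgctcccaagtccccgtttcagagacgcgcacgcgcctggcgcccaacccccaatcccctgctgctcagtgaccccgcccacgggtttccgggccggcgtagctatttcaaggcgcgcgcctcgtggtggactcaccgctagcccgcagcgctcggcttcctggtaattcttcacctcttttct
GABARAPL1: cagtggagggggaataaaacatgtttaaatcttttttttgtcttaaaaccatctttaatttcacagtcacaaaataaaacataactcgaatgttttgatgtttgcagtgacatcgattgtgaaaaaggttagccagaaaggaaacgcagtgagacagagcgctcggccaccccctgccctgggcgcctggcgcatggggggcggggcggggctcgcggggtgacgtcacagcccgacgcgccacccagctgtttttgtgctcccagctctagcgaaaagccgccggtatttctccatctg
The LAMP1 window held 6 E-boxes and the CTSA window 2, while CTSV held 1 TAATCT and neither CTSC nor GABARAPL1 held any of these motifs. A promoter window was at hand for 83 of the members, 1 a gene. The 35116 windows set beside them were not reduced to 1 a gene or limited to genes on the array. CACGTG was in 12 of them (14.5%), against 7.26% of all 35116 windows of the same length. The longer TCACGTGA was in 5 (6.02%, those of ATG3, CHMP4A, CTSA, LAMP1 and VPS11), against 0.98% of all windows. TAATCC was in 3 (3.61%, against 6.36% of all windows) and TAATCT in 5 (6.02%, against 7.17%). A match describes the letters of the window and is not a bound site.

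OTX2 RNA was measured at 9.62, 9.57 and 9.57 log2 units in OTX2 KD replicates 1, 2 and 3 and at 10.56, 10.56 and 10.55 in scramble. All 3 KD arrays were lower, by 0.97 ± 0.073 (SE) on the log2 scale (limma, adjusted p = 8.70e-05), so that transcript remained at 0.51 of its control level. The array medians differed by group, at 3.67 to 3.71 log2 units in OTX2 KD and 3.6 to 3.61 in scramble, a shift of 0.0876. Arrays correlated across clusters with r of 0.99 to 0.993 within a group and 0.959 to 0.965 between groups. Other programs of the cells moved with the groups. All 10 cycling-cell markers were lower in OTX2 KD (mean level 5.91 to 6.17, against 8.50 to 8.54 in scramble), and all 5 measured neuronal markers were higher (8.54 to 8.65, against 5.98 to 6.12). Of 9 measured Group 3 and Group 4 MB markers 6 were lower and 2 higher, and the falls include OTX2 itself, the target of the siRNA. The part of these shifts in the values below was not tested, and in RNA from whole tumorspheres fewer cells of a type and less RNA per cell cannot be told apart.

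The lysosome, autophagy and endosome sorting genes moved in both directions after OTX2 knockdown. In the test used throughout (limma over all 53617 clusters, called at an adjusted p below 0.05), 26 members rose, 25 fell and 62 did not pass. The members called were thus 45.1%, against 39.8% of all named genes (16.6% higher and 23.2% lower). Dim genes pass less often, and among the genes at or above the median level of the array 45.8% of 107 members passed, against 52.2% of named genes. The median log2 fold change was -0.04 over the members and 0.002 over all named genes. When each array was centred on its own median, which removes the group shift of the medians given above, the calls were 19 higher and 33 lower. Values of the 2 groups did not overlap for 71 members (36 higher, 35 lower), or 62.8%, against 55.5% of named genes. At or above the median level the shares were 64.5% of members and 68.7% of named genes. The members' shares were thus near the background of this comparison. By class, 66.7% of cathepsins, 52.9% of VPS genes and 42.3% of sorting nexins were called. The share was 37.5% for autophagy genes, 37.5% for lysosomal membrane proteins with TFEB, 25% for noncoding RNAs and 20% for CHMP genes. The plot of all 113 genes by class shows where within the pathway the changes fell.

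**Figure D1:**
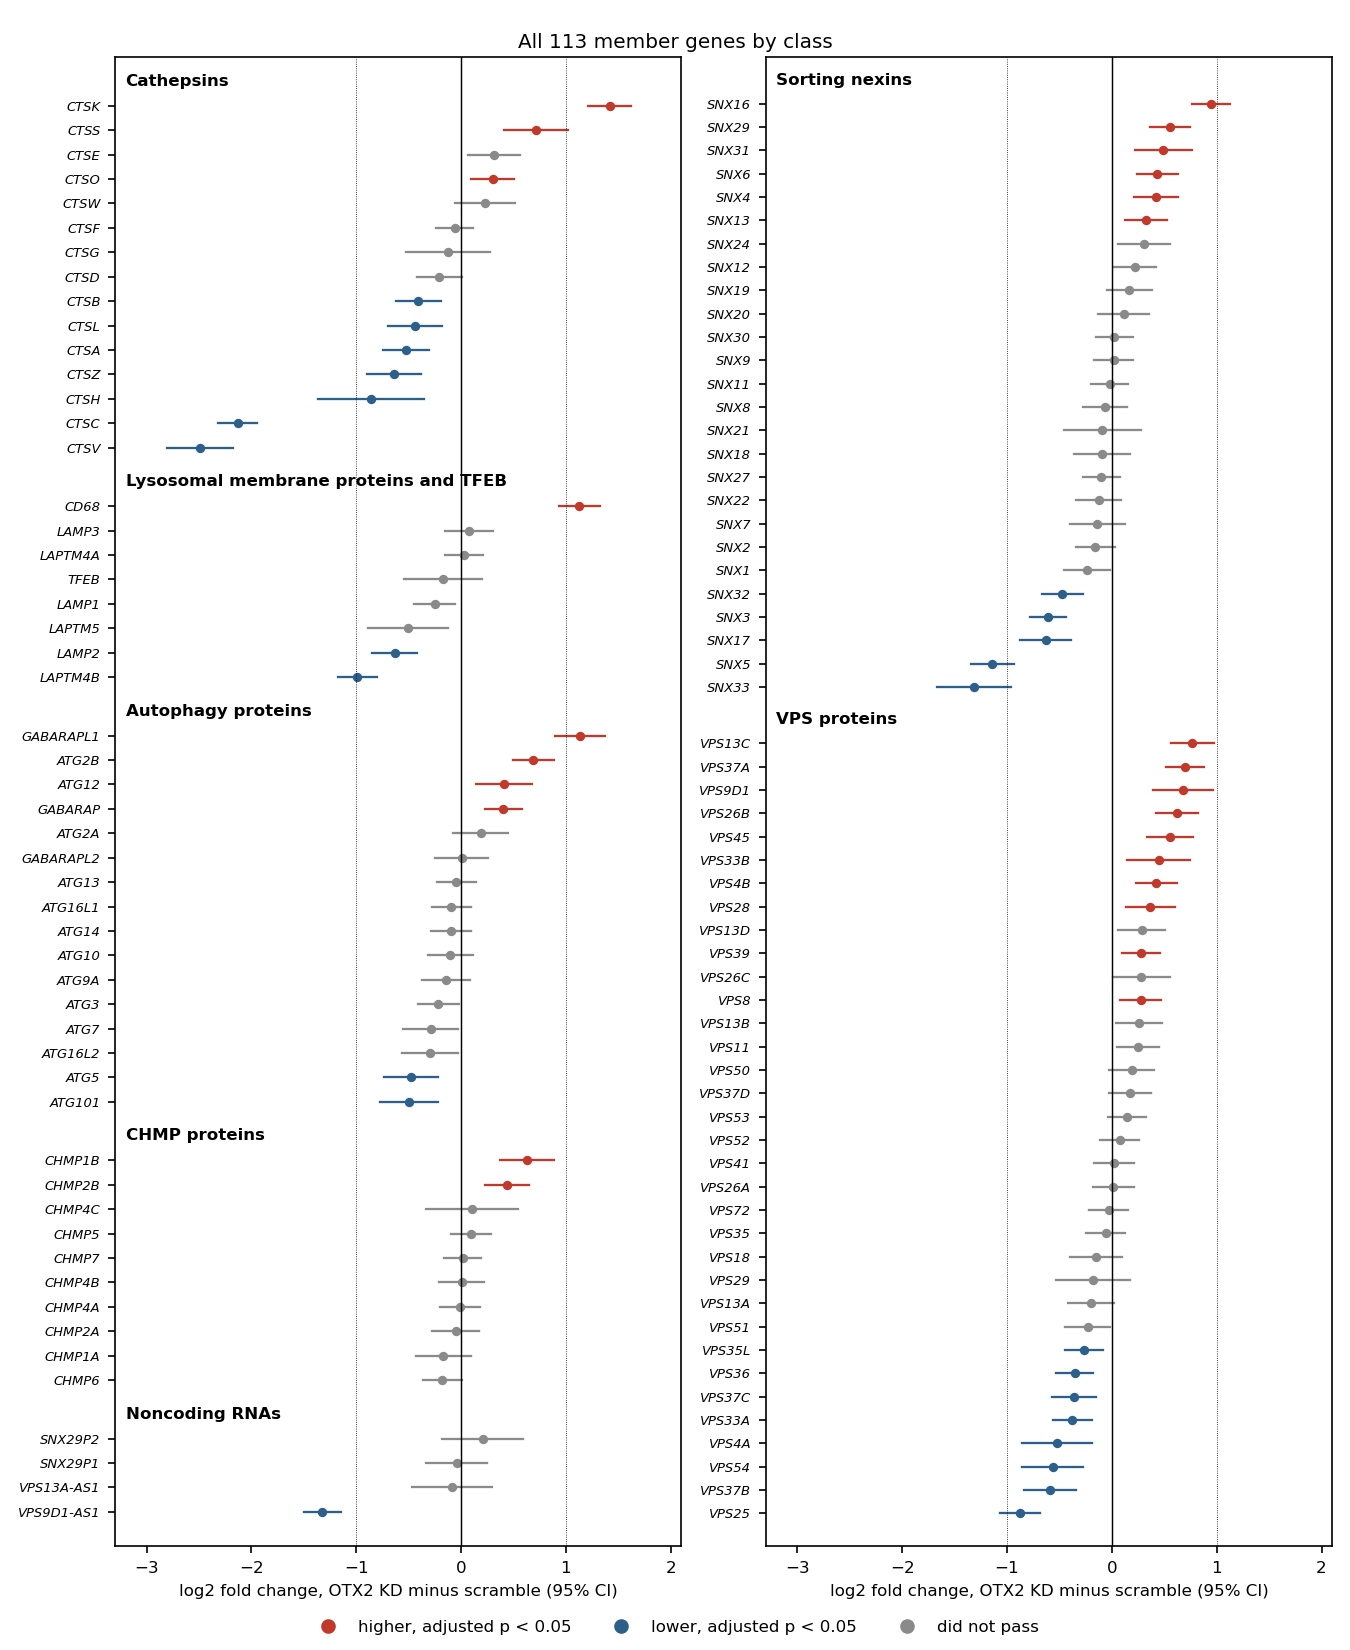
Log2 fold change (OTX2 KD minus scramble, x axis, log2 units) of each of the 113 member genes with its 95% confidence interval, grouped by class, with dotted lines at a 2-fold change. Red and blue points passed adjusted p 0.05 (26 higher, 25 lower) and gray points (62) did not. Cathepsins spread from -2.49 to 1.42, whereas CHMP proteins lay between -0.18 and 0.63.

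At least a 2-fold change was reached by 8 members. CTSK, GABARAPL1 and CD68 rose, and CTSV, CTSC, SNX33, SNX5 and the antisense RNA VPS9D1-AS1 fell. Of all named genes 10.7% passed at this limit (3.82% higher and 6.89% lower). At or above the median level 3 of 107 members were higher and 5 lower, against 550 and 999 of 10548 named genes. The plot of their array values shows the groups apart for each of these 8 genes. They were picked by these same values, so that the separation is no further support.

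**Figure D2:**
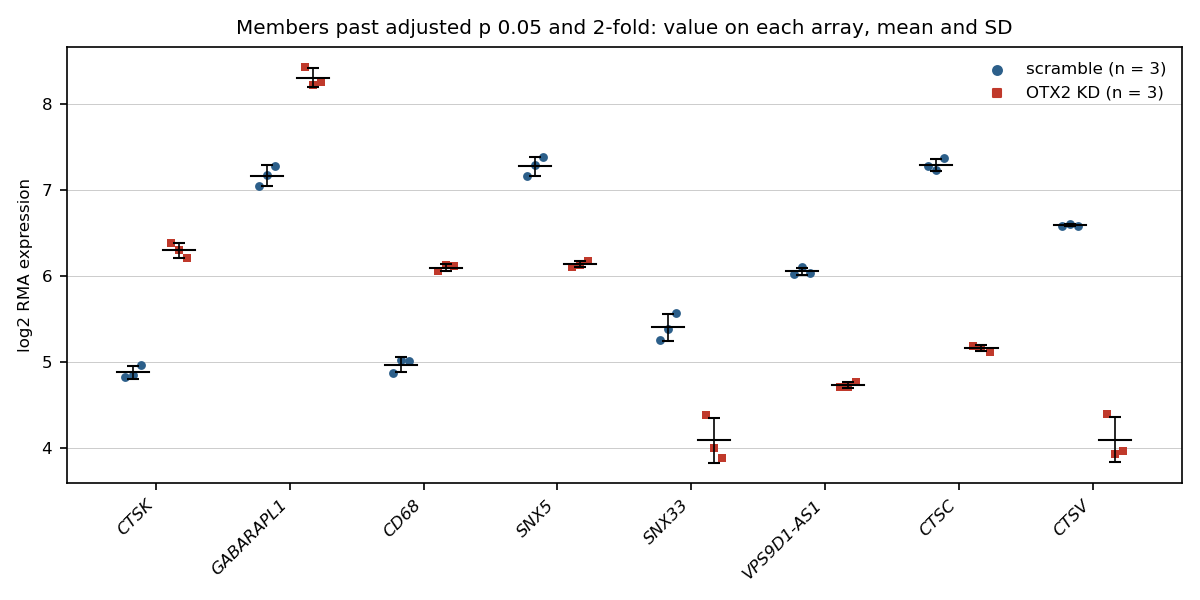
Log2 RMA expression (y axis) of the 8 members that passed adjusted p 0.05 with at least a 2-fold change, on each array (blue circles, scramble; red squares, OTX2 KD; n = 3 each), with the group mean and SD. CTSK, GABARAPL1 and CD68 were higher and the other 5 lower in OTX2 KD.

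Cathepsins were the class with the most calls relative to its size, and most of them were falls. Of 15 cathepsins 7 (46.7%) fell and 3 (20%) rose, with a median log2 fold change of -0.21. Of all named genes 23.2% fell and 16.6% rose, and of those at or above the median level 31.3% and 21%. Without scramble replicate 2 only 4 cathepsins fell. CTSV, a cysteine protease closely related to cathepsin L, was at 4.40, 3.94 and 3.97 in OTX2 KD replicates 1, 2 and 3 and at 6.59, 6.61 and 6.59 in scramble. The KD arrays were far below all control arrays, and replicate 1 was the highest among them. CTSV thus fell by 2.49 ± 0.133 (SE) on the log2 scale, or 5.63-fold (adjusted p = 2.05e-05). CTSC, the dipeptidyl peptidase that activates serine proteases of immune granules, was at 5.20, 5.17 and 5.12 in OTX2 KD and 7.28, 7.24 and 7.37 in scramble. Its arrays were tightly grouped on both sides of a wide gap, and it fell by 2.13 ± 0.080 (4.38-fold, adjusted p = 5.90e-06).

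CTSK, the collagen-degrading protease best known from osteoclasts, went the other way. It was at 6.39, 6.31 and 6.21 in OTX2 KD and 4.83, 4.86 and 4.97 in scramble, every KD array above every control. The rise was 1.42 ± 0.088 on the log2 scale, or 2.67-fold (adjusted p = 3.67e-05). CTSS, a protease of antigen presentation, also rose, from 2.43, 2.37 and 2.62 in scramble to 2.95, 3.26 and 3.35 in OTX2 KD (log2 fold change 0.71 ± 0.128, adjusted p = 0.00514). All 6 of its values lay below the array median, so that this was a change within the range of dim clusters. CTSO, a little-studied relative, rose by 0.30 ± 0.089 (adjusted p = 0.0416), a call lost when any array but scramble replicate 3 was left out (adjusted p = 0.0534 to 0.124).

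The broadly expressed cysteine cathepsins had smaller falls. CTSB was at 4.95, 4.82 and 5.03 in OTX2 KD and 5.41, 5.36 and 5.25 in scramble, without overlap (log2 fold change -0.41 ± 0.092, adjusted p = 0.0145, or 0.0523 without scramble replicate 2). CTSL, a main endopeptidase of lysosomes, was at 6.10, 5.80 and 6.15 in OTX2 KD and 6.42, 6.50 and 6.46 in scramble, with replicate 2 the lowest KD array (-0.44 ± 0.111, adjusted p = 0.0234). The call for CTSL was lost without scramble replicate 1, 2 or 3 (adjusted p = 0.0503, 0.0758 and 0.0651). CTSL and CTSV are similar in sequence, and how far probes of one read RNA of the other was not tested. The aminopeptidase CTSH fell by 0.86 ± 0.216, and its KD arrays were spread from 2.89 to 3.71 (adjusted p = 0.0226). This call was lost without OTX2 KD replicate 1 or 3 (adjusted p = 0.0533 and 0.063) and without scramble replicate 2 or 3 (0.0735 and 0.0766). Among genes named after their values were seen, the carboxypeptidase CTSZ fell by 0.64 ± 0.108 (adjusted p = 0.00391), and CTSA, a serine carboxypeptidase that protects lysosomal neuraminidase and beta-galactosidase, fell by 0.53 ± 0.092 (adjusted p = 0.00458). CTSD, the main aspartic protease of lysosomes, was at 9.09, 9.08 and 9.18 in OTX2 KD and 9.42, 9.37 and 9.19 in scramble. Its groups came close to meeting but did not overlap, and the difference of -0.21 ± 0.092 did not pass (95% interval -0.42 to 0.01, adjusted p = 0.147).

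Among the lysosomal membrane proteins and TFEB, 1 of 8 genes rose and 2 fell. CD68, a heavily glycosylated lysosomal protein used as a macrophage marker, was at 6.06, 6.13 and 6.12 in OTX2 KD and 4.87, 5.03 and 5.01 in scramble. All KD arrays were above all control arrays, a rise of 1.13 ± 0.083 on the log2 scale (2.19-fold, adjusted p = 7.70e-05). Leukocyte markers were therefore read beside it. Of 13 listed, 6 had a named cluster, with a mean level of 3.56 to 3.67 in OTX2 KD and 3.38 to 3.53 in scramble. Only LYZ among these 6 passed the test, and it rose along with CD68 (0.91 ± 0.120, adjusted p = 0.00115). The monocyte and macrophage markers CD14 and CD163 were below the array median on all 6 arrays and CSF1R on 4, whereas SPI1 (4.44 to 4.93) and TYROBP (3.75 to 4.08) were above it on all 6. The part of leukocyte-type RNA in the rise of CD68 was not tested.

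LAPTM4B, a small lysosomal membrane protein, was at 9.97, 9.83 and 9.87 in OTX2 KD and 10.88, 10.85 and 10.91 in scramble. All KD arrays were lower, by 0.99 ± 0.080 on the log2 scale (1.99-fold, adjusted p = 1.15e-04), just under the 2-fold limit. LAPTM4A, its close relative, was at 10.31, 10.35 and 10.30 in OTX2 KD and 10.29, 10.23 and 10.34 in scramble, fully overlapping (0.03 ± 0.077, 95% interval -0.15 to 0.21). LAPTM5, the hematopoietic relative, had a difference of -0.51 ± 0.162 that did not pass (adjusted p = 0.0563). It passed without OTX2 KD replicate 2 (adjusted p = 0.0111), with a block for the replicate number (0.0293) and in 5 settings of the scaling, filter or variance (0.0253 to 0.044). Without any other array its adjusted p ranged from 0.0702 to 0.153.

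LAMP1 and LAMP2 are the abundant glycoproteins that line the lysosome membrane. LAMP2, which also serves chaperone-mediated autophagy, was at 6.69, 6.50 and 6.66 in OTX2 KD and 7.23, 7.18 and 7.34 in scramble, a separation without overlap. LAMP2 fell by 0.63 ± 0.092 (adjusted p = 0.00189). LAMP1, the gene with 6 E-boxes in its promoter window, was at 8.18, 8.06 and 8.06 in OTX2 KD and 8.42, 8.34 and 8.29 in scramble. Its KD arrays were all lower, but the difference of -0.25 ± 0.084 did not pass (adjusted p = 0.0661). It passed in 4 alternatives, which were median centring (adjusted p = 0.0247), clusters at or above the median level (0.0242), clusters with 1 symbol (0.027) and trend and robust variance (0.013). In each of these 4, 4 genes of this class fell. TFEB RNA was at 3.95, 3.36 and 3.69 in OTX2 KD and 3.86, 3.96 and 3.69 in scramble. These values overlapped throughout, close to the array median (-0.17 ± 0.158, 95% interval -0.54 to 0.20, adjusted p = 0.492). The array measures RNA only, whereas TFEB is known to be controlled mainly by phosphorylation and by its place in the cell.

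Among 16 autophagy genes 4 rose and 2 fell, with a median of -0.09. The falls numbered 5 after median centring or when only clusters with 1 symbol were fitted, 1 without replicate 2 of either group or OTX2 KD replicate 3, and 0 without scramble replicate 3. The ATG8 family, whose proteins are attached to the autophagosome membrane, held the leading change. GABARAPL1 was at 8.44, 8.23 and 8.26 in OTX2 KD and 7.05, 7.18 and 7.29 in scramble, the lowest KD array well above the highest control. It rose by 1.14 ± 0.101 (2.20-fold, adjusted p = 1.81e-04). A near-identical pseudogene, GABARAPL3, exists, and its share of this signal was not tested. GABARAP was at 9.34, 9.32 and 9.36 in OTX2 KD and 8.94, 8.89 and 8.97 in scramble, a smaller rise without overlap (0.40 ± 0.075, adjusted p = 0.00612). GABARAPL2 was at 7.09, 6.84 and 6.83 in OTX2 KD and 6.80, 6.91 and 7.02 in scramble, overlapping and without a direction (0.01 ± 0.107, 95% interval -0.24 to 0.26).

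Upstream of the ATG8 proteins, ATG2B, which bridges the growing autophagosome membrane to the endoplasmic reticulum and carries lipid into it, was at 7.40, 7.29 and 7.27 in OTX2 KD and 6.55, 6.69 and 6.64 in scramble. Its groups were clearly apart, and it rose by 0.69 ± 0.084 (adjusted p = 7.93e-04). The conjugation machinery that attaches ATG8 proteins to lipid was split. ATG12 rose by 0.41 ± 0.113 (adjusted p = 0.0327), and ATG5, to which ATG12 is joined, fell by 0.48 ± 0.109 (adjusted p = 0.0149). The call for ATG12 was lost when any array but OTX2 KD replicate 2 was left out (adjusted p = 0.0566 to 0.0967), and that for ATG5 without scramble replicate 3 (0.0535). The other 5 conjugation genes (ATG3, ATG7, ATG10, ATG16L1 and ATG16L2) did not pass. ATG101, a subunit of the ULK1 kinase complex that starts autophagy, fell by 0.50 ± 0.117 (adjusted p = 0.0175), but its second, dimmer cluster had a difference of 0.03 ± 0.180 (adjusted p = 0.926). It also lost its call without replicate 2 or 3 of either group (adjusted p = 0.0549 to 0.0614).

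Of 26 sorting nexins, proteins that bind phosphoinositides on endosomes, 6 rose and 5 fell. SNX33, which has an SH3 domain and a membrane-bending BAR domain, was at 4.39, 4.01 and 3.89 in OTX2 KD and 5.26, 5.39 and 5.58 in scramble. Its KD values were the more spread, yet all were lower, by 1.32 ± 0.150 on the log2 scale (2.49-fold, adjusted p = 6.02e-04). SNX5, a BAR-domain partner in tubular transport from endosomes to the Golgi, was at 6.11, 6.13 and 6.18 in OTX2 KD and 7.16, 7.29 and 7.38 in scramble. It fell by 1.14 ± 0.088 (2.20-fold, adjusted p = 9.60e-05), with a clear gap between the groups. SNX6, named after its values were seen, can take the same place as SNX5 in these dimers. SNX6 rose from 7.68, 7.66 and 7.81 in scramble to 8.15, 8.10 and 8.19 in OTX2 KD (0.43 ± 0.083, adjusted p = 0.00698). Their dimer partners SNX1 and SNX2 had differences of -0.24 ± 0.093 and -0.16 ± 0.079 that did not pass.

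The largest rise among sorting nexins was that of SNX16, a nexin of early and late endosomes. SNX16 was at 7.59, 7.66 and 7.60 in OTX2 KD and 6.63, 6.68 and 6.70 in scramble, with little spread on either side (0.95 ± 0.076, adjusted p = 1.13e-04). SNX29 rose by 0.56 ± 0.082 (adjusted p = 0.00201), and its pseudogenes SNX29P1 and SNX29P2, which share sequence with it, did not pass (-0.04 ± 0.124 and 0.21 ± 0.165). SNX31 rose by 0.49 ± 0.116 from a level below the array median on all arrays (adjusted p = 0.0175, or 0.0508 and 0.0642 without scramble replicate 1 or 2). Nexins with roles in recycling went both ways. SNX17, an adaptor that returns integrins and LDL receptor family members to the surface, was lower by 0.63 ± 0.104 (adjusted p = 0.00347), and SNX3, the retromer partner named after its values were seen, was lower by 0.61 ± 0.073 (adjusted p = 7.54e-04). Also named in that way, SNX4, a nexin of the recycling route, rose by 0.42 ± 0.090 (adjusted p = 0.0112), and the recycling adaptor SNX27 had a difference of -0.10 ± 0.075 that did not pass (adjusted p = 0.386).

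The VPS genes, named after yeast mutants that missort vacuolar proteins, had 10 rises and 8 falls among 34. Leaving out 1 array left 6 to 8 rises (6 without scramble replicate 2 or 3 or OTX2 KD replicate 1) and 5 to 7 falls (5 without scramble replicate 1 or 2 or OTX2 KD replicate 2). Median centring left 6 rises. Repeated quantile normalization and trend and robust variance gave 13 rises each, as did fits of clusters at or above the median level or with 1 symbol. VPS25, a subunit of ESCRT-II, was at 8.05, 7.90 and 7.97 in OTX2 KD and 8.89, 8.84 and 8.81 in scramble. It was lower on every KD array, by 0.88 ± 0.082 on the log2 scale (adjusted p = 2.28e-04). VPS37A, 1 of 4 alternative VPS37 subunits of ESCRT-I, was at 6.80, 6.75 and 6.81 in OTX2 KD and 6.13, 6.11 and 6.02 in scramble. It rose by 0.70 ± 0.078 (adjusted p = 5.39e-04), again without overlap. VPS37B was at 4.88, 4.78 and 4.88 in OTX2 KD and 5.55, 5.51 and 5.24 in scramble, the reverse order. VPS37B fell by 0.59 ± 0.105 (adjusted p = 0.00502), but its dimmer second cluster had a difference of 0.22 ± 0.123 (adjusted p = 0.252). Of the 7 ESCRT-I and ESCRT-II genes together 4 fell and 2 rose. The rise of VPS28 (0.37 ± 0.099, adjusted p = 0.03) was lost without OTX2 KD replicate 1 or 3 or scramble replicate 2 or 3 (adjusted p = 0.0559 to 0.0891) and after median centring (0.0837). The fall of VPS37C (-0.36 ± 0.089, adjusted p = 0.0217) was lost without replicate 1 or 2 of either group (adjusted p = 0.0515 to 0.0789).

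VPS13C, a lipid carrier between the endoplasmic reticulum and late endosomes, had the largest rise of the class. It was at 7.33, 7.24 and 7.23 in OTX2 KD and 6.41, 6.49 and 6.60 in scramble, with no overlap (0.77 ± 0.086, adjusted p = 5.39e-04). The related VPS13A, VPS13B and VPS13D did not pass, with log2 fold changes of -0.20 ± 0.095, 0.26 ± 0.094 and 0.29 ± 0.096. VPS13B and VPS13D passed as rises in 4 alternatives, which were repeated quantile normalization, clusters at or above the median level, clusters with 1 symbol and trend and robust variance. In the retromer, which retrieves receptors from endosomes, VPS35 was at 9.21, 9.10 and 9.16 in OTX2 KD and 9.22, 9.17 and 9.25 in scramble. These ranges overlapped (-0.06 ± 0.078, 95% interval -0.24 to 0.13), whereas VPS26B, a retromer subunit named after its values were seen, rose by 0.62 ± 0.084 (adjusted p = 0.00131). Its counterpart VPS26A had a difference of 0.02 ± 0.083.

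VPS54, a subunit of the GARP tether at the trans-Golgi, fell by 0.57 ± 0.124 (adjusted p = 0.0125). The other 4 tether subunits of GARP and the related EARP complex did not pass. Of the 6 HOPS and CORVET subunits, which tether late and early endosomes before fusion, VPS39 and VPS8 rose, VPS33A fell and VPS11, VPS18 and VPS41 did not pass. All 3 calls were small, between -0.38 and 0.28, and those for VPS39 and VPS8 were lost when any array was left out.

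VPS9D1 and the antisense RNA VPS9D1-AS1, transcribed from the opposite strand at the same locus, moved in opposite directions. VPS9D1 was at 5.30, 5.37 and 5.49 in OTX2 KD and 4.93, 4.65 and 4.53 in scramble, a rise of 0.68 ± 0.122 (adjusted p = 0.005). VPS9D1-AS1 was at 4.72, 4.72 and 4.77 in OTX2 KD and 6.03, 6.11 and 6.04 in scramble. It was far lower on every KD array, by 1.32 ± 0.076 on the log2 scale (2.50-fold, adjusted p = 2.63e-05). The other antisense RNA, VPS13A-AS1, had a difference of -0.08 ± 0.163 that did not pass.

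The CHMP genes, which encode the ESCRT-III subunits that cut membrane necks, had few calls. CHMP1B and CHMP2B rose, none of the 10 fell (1 did after median centring) and the median was 0.01. CHMP1B was at 8.08, 7.88 and 8.25 in OTX2 KD and 7.39, 7.50 and 7.44 in scramble, with all KD arrays higher (0.63 ± 0.110, adjusted p = 0.00461). CHMP2B, a gene mutated in a familial frontotemporal dementia, was at 7.03, 6.85 and 6.91 in OTX2 KD and 6.47, 6.43 and 6.58 in scramble, also without overlap (0.44 ± 0.090, adjusted p = 0.00936). CHMP2A was at 8.48, 8.38 and 8.24 in OTX2 KD and 8.45, 8.32 and 8.46 in scramble. Its groups overlapped and it did not pass (-0.05 ± 0.096, 95% interval -0.27 to 0.18). The VPS4 ATPases that take ESCRT-III apart, named after their values were seen, were split, with VPS4B up by 0.42 ± 0.083 (adjusted p = 0.00768) and VPS4A lower by 0.52 ± 0.142 (adjusted p = 0.0302). The call for VPS4A was lost without scramble replicate 1 or 2 or OTX2 KD replicate 2.

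Some close relatives differed in direction, as the plot of related genes shows. These families were set side by side after their values were seen, and the difference between relatives was not tested.

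**Figure D3:**
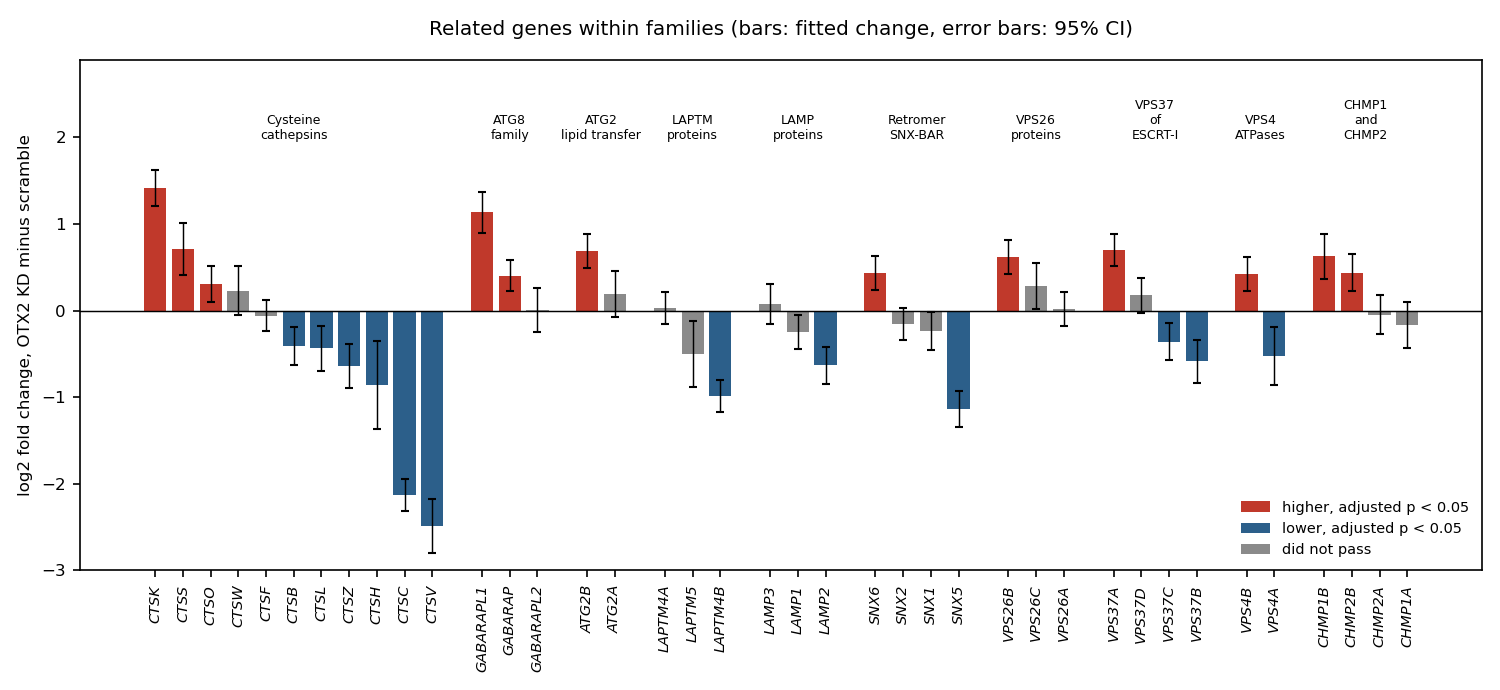
Log2 fold change (OTX2 KD minus scramble, y axis, log2 units) of related member genes, with 95% confidence intervals as error bars. Red bars rose and blue bars fell at adjusted p below 0.05, and gray bars did not pass. SNX6 (0.43) and SNX5 (-1.14), VPS37A (0.70) and VPS37B (-0.59), VPS4B (0.42) and VPS4A (-0.52) and CTSK (1.42) and CTSV (-2.49) lay on opposite sides of 0.

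The promoter motifs shown above were then set beside the calls. Of all 83 members with a window 47 did not pass, 18 rose and 18 fell. Of the 12 members with an E-box in the window 9 did not pass, 1 rose (VPS8) and 2 fell (CTSA and VPS37B). Of the 5 with the longer TCACGTGA 4 did not pass and CTSA fell. Among 18 windows of members that rose, 0 held TAATCC and 1 (5.56%) held TAATCT. Among 18 windows of members that fell, 0 held TAATCC and 2 (11.1%) held TAATCT, those of CTSV and ATG5. Those of the 3 members with TAATCC (CHMP2A, CTSG and SNX18) did not pass. These counts are small and describe the windows only.

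Further genes of the same pathways were read from lists made by function. In the 5 measured lists 33.3% to 57.9% of the genes were called, against 39.8% of all named genes. Most genes of each list were at or above the median level, where 52.2% of named genes were called. Of 40 other lysosomal hydrolases and activators, 19 had a named cluster, of which 3 rose and 6 fell (median -0.12). IDS, the iduronate sulfatase lost in Hunter syndrome, rose from 6.13, 5.97 and 6.10 in scramble to 8.04, 8.06 and 8.01 in OTX2 KD (1.97 ± 0.082, 3.92-fold, adjusted p = 8.18e-06), a change larger than that of any member that rose. LGMN, the asparaginyl protease legumain that processes cathepsins, was at 7.01, 7.11 and 7.11 in OTX2 KD and 8.87, 9.09 and 9.003 in scramble. LGMN fell by 1.91 ± 0.090 (3.76-fold, adjusted p = 1.27e-05), so that it and the cathepsins CTSV and CTSC had the largest falls among the measured hydrolases. The dipeptidyl peptidase DPP7 fell by 0.99 ± 0.083 (adjusted p = 1.38e-04) and the serine carboxypeptidase SCPEP1 rose by 0.50 ± 0.080 (adjusted p = 0.00305). Of 9 measured lysosomal membrane proteins and transporters outside the members, LITAF rose by 0.56 ± 0.092, and CD63 and TMEM192 fell by 0.59 ± 0.089 and 0.46 ± 0.113. The 24 listed subunits of the v-ATPase, the proton pump of lysosomes, were not analysed here because none had a named cluster.

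The other autophagy genes had 6 rises and 3 falls among 24 (median 0.04). Cargo receptors went both ways. OPTN, a receptor for damaged mitochondria and bacteria, was at 6.82, 6.86 and 6.86 in OTX2 KD and 5.04, 5.04 and 5.01 in scramble, with very little spread (1.82 ± 0.073, adjusted p = 7.29e-06). CALCOCO2, a receptor with overlapping cargo, fell by 1.37 ± 0.136 (adjusted p = 3.07e-04). RUBCN, which restrains the lipid kinase complex of autophagy, rose by 1.35 ± 0.076 (adjusted p = 2.46e-05), and FYCO1, which links autophagosomes to kinesin, fell by 1.13 ± 0.085 (adjusted p = 8.36e-05). The receptor SQSTM1, named after its values were seen, had a difference of -0.07 ± 0.075 that did not pass. Among 14 other endosome sorting and ESCRT genes 1 rose (WASHC1, 0.37 ± 0.084) and 4 fell, including M6PR, the cation-dependent mannose 6-phosphate receptor that carries hydrolases to lysosomes (-0.62 ± 0.087, adjusted p = 0.00159), and UBAP1 of ESCRT-I (-0.30 ± 0.079).

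Among 19 regulators of the lysosome and of mTORC1 7 rose and 4 fell. RRAGD, a Rag GTPase that recruits mTORC1 and TFEB family proteins to the lysosome, was at 6.56, 6.23 and 6.49 in OTX2 KD and 8.89, 9.03 and 9.03 in scramble. It fell by 2.56 ± 0.110 (5.89-fold, adjusted p = 8.98e-06), with the groups far apart. DEPTOR, an inhibitor within the mTOR complexes, fell by 1.36 ± 0.082 (adjusted p = 3.28e-05). TSC1, a subunit of the complex that restrains mTORC1, rose by 1.03 ± 0.077 (adjusted p = 8.44e-05), and ZKSCAN3, described as a repressor of autophagy genes, rose by 0.86 ± 0.110 (adjusted p = 0.00106). Of the relatives of TFEB, named after their values were seen, MITF fell by 0.76 ± 0.093 at levels below the array median (adjusted p = 7.93e-04), and TFE3 and TFEC did not pass (-0.15 ± 0.112 and -0.08 ± 0.107).

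**Figure D4:**
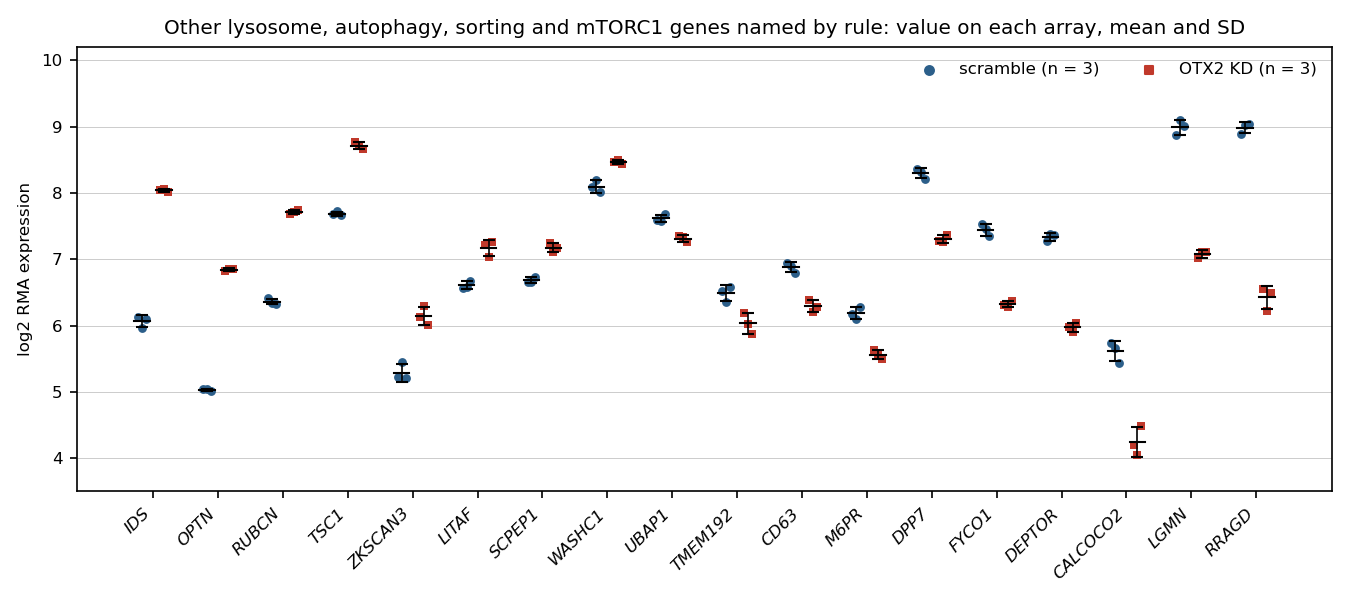
Log2 RMA expression (y axis) of the 18 genes named by rule from the 5 measured pathway lists, on each array (blue circles, scramble; red squares, OTX2 KD; n = 3 each), with group mean and SD. Genes are ordered from the largest rise (IDS, 1.97) to the largest fall (RRAGD, -2.56).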

How the data were processed

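RNA of D283 tumorspheres was hybridized by the authors to Affymetrix HuGene 2.0 ST arrays, 3 of OTX2 KD and 3 of scramble, grouped here by sample title. The deposited values are on a log2 scale. The authors produced them by RMA in Affymetrix Expression Console, a procedure that corrects background, equalizes the arrays by quantiles and summarizes the probes of each cluster by median polish. RMA draws the arrays to a common distribution, so that a change in total RNA is not seen. No source used here gives hybridization or scan batches. Clusters were named from the platform annotation. Of 53617 clusters 16098 had 1 symbol and 37519 had none, and the latter were tested but not named. Array values have no read depth, and their number limits the precision.

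For each cluster a 2-group model was fitted with limma 3.58.1 in R 4.3.3 (lmFit, eBayes), and two-sided p-values were adjusted by Benjamini-Hochberg across the whole table, dim clusters included. The error beside a log2 fold change is its fitted SE. Clusters were called at adjusted p below 0.05, and again with a 2-fold limit. The fit was first tested on simulated data. Members and lists were chosen with earlier results of these data known. The text names OTX2, all members past the 2-fold limit, in each class the 3 largest rises and 3 largest falls past adjusted p 0.05 and the member with the highest level, TFEB, LAMP1, LAMP2, CD68, CTSB, CTSD, CTSL and the GABARAP genes, and in each other list the 2 largest rises and 2 largest falls past it. Further genes, among them SNX6, LAPTM4A, LAPTM5, VPS28 and VPS37C, were picked with their values in view. The results were recomputed with a block for the replicate number, median centring, repeated quantile normalization, clusters at or above the median level, clusters with 1 symbol, trend and robust variance, the mean of a gene's clusters, unadjusted p and each array left out in turn. Promoter windows came from RefSeq (GRCh38.p14) by gene ID, and were scanned in Python 3.11.15. Figures were drawn with matplotlib 3.10.9.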

Additional observations from a re-analysis of the deposited data

How the results depend on the processing

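The numbers of members called in each direction, with and without the 2-fold limit, stayed within 1.5 times their main values under all alternatives, and none of the 51 called members changed direction. Leaving out 1 array left 19 to 22 members higher and 18 to 22 lower, and 37 to 43 of the 51 calls were kept. Without scramble replicate 2, for example, 14 calls were lost, CTSB, CTSL and CTSH among them. At an unadjusted p below 0.05, 33 members were higher and 32 lower. Median centring moved the median of the members from -0.04 to -0.13 and that of all named genes from 0.002 to -0.09. It also lost 7 calls, ATG12 and CTSO among them, and gained 8, LAMP1 among them. CTSO was not called in 9 alternatives. VPS37B and ATG101 lost their calls when the clusters of a gene were averaged (adjusted p = 0.182 and 0.119). Of the genes without a call, GABARAPL2 turned to -0.079 after centring, and ranged from -0.076 (without OTX2 KD replicate 1) to 0.065 (without scramble replicate 3) when 1 array was left out, and was -0.046 without scramble replicate 1. CHMP2A ranged from -0.107 (without OTX2 KD replicate 1) to 0.014 (without OTX2 KD replicate 3). The cause of these changes was not tested. Same-numbered arrays did not deviate together (correlations of -0.0559, -0.0228 and -0.000718), so the numbers were not taken to pair samples. With the replicate number as a block 18 members were higher and 21 lower, and 38 of the 51 calls were kept. The 13 lost were CTSL, CTSO, ATG101, ATG12, SNX13, SNX31, VPS39, VPS8, VPS35L, VPS28, VPS37C, VPS4A and VPS33B, and LAPTM5 was gained. The 2-fold counts stayed at 3 and 5 and the median at -0.04.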
